A study of Mus musculus with 20 samples.

Results

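The endothelial identity genes of the heart described here were Pecam1, Cdh5, Cldn5, Ly6c1, Esam, Tie1, Egfl7, Emcn, Eng and Vwf. They were chosen by name, as genes by which endothelial cells are commonly recognised, and each was found once by its symbol among 24059 genes. All 10 passed the expression filter and belong to the 14007 genes tested. The RNA came from the left ventricular free wall of male C57BL/6 mice of about 9 to 13 weeks, in 4 groups of 5 libraries. The groups were GRflox mice (genotype GRfl/fl) at ZT0, when the lights went on, and at ZT12, when they went off, and CardioGRKO mice (GRfl/fl with alphaMHC-Cre on 1 allele) at the same times. Both genotypes carry loxP-flanked alleles of Nr3c1, the gene of the glucocorticoid receptor. The Cre recombinase of CardioGRKO is made under the promoter of alpha myosin heavy chain, a cardiomyocyte protein, so by design the endothelial cells keep the receptor. The GRflox littermates had no Cre, so that receptor loss and the presence of Cre cannot be told apart.

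Endothelial cells line all blood vessels and the inner surface of the heart, and capillaries run beside almost every cardiomyocyte. Their identity genes encode proteins that hold neighbouring cells together (Pecam1, Cdh5, Esam, Cldn5), receptors of vessel growth and stability (Tie1, Eng), surface glycoproteins (Emcn, Ly6c1) and secreted proteins (Egfl7, Vwf). In RNA from whole tissue a marker can be lower because fewer cells of the type were sampled or because each cell held less of the RNA. It can also be lower because other cells gave more RNA, since levels are relative to the other RNA of a library. These cannot be told apart here. A change in the share of endothelial cells as a whole would move genes made evenly by them, and only by them, by the same factor. Regulation of a single gene would not. A change among kinds of endothelial cell, or in other cells that make a marker, could also move the genes unequally. The members were therefore compared gene by gene and against 26 other endothelial genes, among them Kdr, Flt1, Tek, Robo4, Erg and Nos3.

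The 20 libraries held 5854462 to 37648421 counts (median 23223656). Least deep was CardioGRKO ZT0 replicate 1, whose deposited file also carries another number than the other 19. Levels are CPM, the counts of a gene scaled to the same library total and by TMM, a factor that corrects for the make-up of a library. These factors separated the genotypes, with 0.961 to 0.996 in GRflox and 1.01 to 1.04 in CardioGRKO. The targeted gene Nr3c1 was at 106 to 122 CPM in GRflox and 51.8 to 61.1 CPM in CardioGRKO at ZT0. At ZT12 it was at 95.3 to 117 and 46.7 to 55.9 CPM, so no CardioGRKO library reached a GRflox library at either time. The 11 cardiomyocyte markers summed to 102400 to 129100 CPM, far above every other list of cell markers. The 10 endothelial genes summed to 1211 to 1622 CPM, or 0.123% to 0.157% of all counts. Each was counted at least 176 times in every library. Replicates are numbered in the labels but not linked to individual animals, so p-values measure the spread between these libraries, which may be partly technical.

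The members lie on 9 chromosomes and, in the GRCm38.p6 assembly, none lies next to another: Eng and Egfl7 share chromosome 2 but start at 32646595 and 26581083. Promoter sequences, taken from RefSeq with GRCm38.p6 coordinates, were found for 6 of the 10 members, with 9 windows that run from 250 bases before to 50 bases after a transcript start. The upstream 250 bases are shown for Cldn5 and Ly6c1, since these 2 genes changed most with time and in opposite directions, and for Tie1, which fell in CardioGRKO at ZT0 and from ZT0 to ZT12 in GRflox. They lie at chr16:18776597-18776846 (plus strand), chr15:75048838-75049087 (minus strand, the start site farther upstream of the 2 listed) and chr4:118489850-118490099 (minus strand). Capitals mark matches to AGGTCA, a core read by many nuclear receptors, or to AGGAAG, a core of binding sites of the ETS family of factors, on either strand.
Cldn5: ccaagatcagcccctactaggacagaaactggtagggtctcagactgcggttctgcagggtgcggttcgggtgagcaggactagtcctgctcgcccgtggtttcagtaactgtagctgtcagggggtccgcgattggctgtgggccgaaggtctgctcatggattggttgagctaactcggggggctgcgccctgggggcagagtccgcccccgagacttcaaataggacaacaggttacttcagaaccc
Ly6c1: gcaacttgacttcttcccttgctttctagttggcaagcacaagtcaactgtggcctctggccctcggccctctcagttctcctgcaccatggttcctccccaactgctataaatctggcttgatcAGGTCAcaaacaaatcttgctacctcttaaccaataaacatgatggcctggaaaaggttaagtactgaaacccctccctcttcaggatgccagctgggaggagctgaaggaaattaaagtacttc
Tie1: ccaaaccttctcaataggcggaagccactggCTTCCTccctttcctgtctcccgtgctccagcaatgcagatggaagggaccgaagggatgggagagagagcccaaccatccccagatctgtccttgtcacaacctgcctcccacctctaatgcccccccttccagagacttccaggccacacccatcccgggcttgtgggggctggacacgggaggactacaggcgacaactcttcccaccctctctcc
Both strands of each window of 300 bases were searched for 5 motifs. These were CACGTG (the E-box read by the clock factors), TTANGTAA (the D-box), the nuclear receptor core, the ETS core and the palindromic glucocorticoid response element. No searched motif was found in the Cldn5 window. The Ly6c1 window held AGGTCA once, at position -125 from the start, and the window of its other start site held AGGAAG 3 times, of which 2 overlap. In Tie1, AGGAAG stood on the opposite strand at positions -219 and 33. Among all 32851 promoter windows of that length, 7.15% held CACGTG, 2.32% TTANGTAA, 16.26% AGGTCA, 35.35% AGGAAG and 0.01% the glucocorticoid response element. CACGTG, TTANGTAA and the glucocorticoid response element were in none of the members' 9 windows. AGGAAG was in windows of Ly6c1, Tie1, Egfl7, Emcn and Eng, and AGGTCA in windows of Ly6c1, Egfl7 and Emcn. The shares over all windows are per window, while Ly6c1 and Egfl7 each have several windows.

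Levels between genes were compared per kilobase of the longest RefSeq transcript, over all 20 libraries. Ly6c1 was highest at 165 ± 43.5 CPM per kilobase (SD, n = 20), followed by Cdh5 at 107 ± 11.7, Eng at 72.4 ± 9.94, Pecam1 at 56.9 ± 5.94 and Egfl7 at 54.7 ± 4.51. Tie1 (29.5 ± 3.09 CPM per kilobase), Esam (24.3 ± 2.43), Emcn (21.2 ± 2.82) and Cldn5 (14.8 ± 6.69) came next. Vwf, whose transcript of 8834 bases is the longest, was lowest at 6.96 ± 1.21. From Eng downwards, neighbours in this order differed by less than the sum of their SDs, except Egfl7 and Tie1, which differed by more. The order also depends on the length used. Over the union of all annotated exons 3 pairs of neighbours changed places: Cdh5 (102 CPM per kilobase) stood above Ly6c1 (82.8), Tie1 (24.5) above Egfl7 (21.3) and Cldn5 (14.8) above Emcn (10.2).

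**Figure D1:**
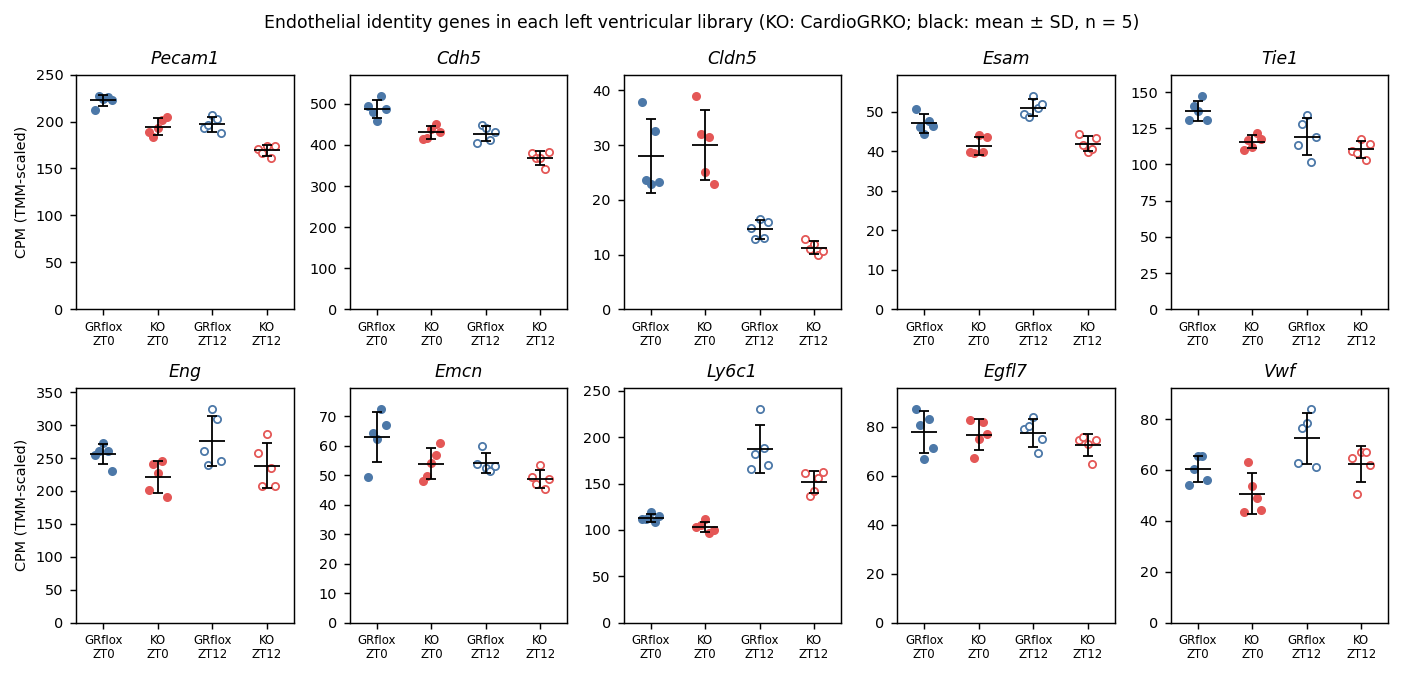
TMM-scaled CPM of each of the 10 genes (panels, axes from 0) in the 20 libraries, by genotype and time; filled points are ZT0, open points ZT12, blue GRflox, red CardioGRKO, and black marks the mean ± SD of 5 libraries. Cldn5 is lower and Ly6c1 higher at ZT12 in both genotypes without overlap, and Pecam1, Cdh5 and Esam are lower in CardioGRKO at both times without overlap.

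The comparison of genotypes asks what the endothelial genes do in a wall whose cardiomyocytes lost the receptor. In CardioGRKO the junction genes Pecam1, Cdh5 and Esam were lower at both times, Tie1 at ZT0 and Ly6c1 at ZT12, each by 11.7% to 19.1%. At ZT0, 4 of the 10 members were called, each lower (quasi-likelihood F-test of edgeR, p adjusted by Benjamini-Hochberg, threshold 0.05), where 14.7% of all genes tested were called, 7.35% lower and 7.36% higher. At ZT12 again 4 of 10 were called, each lower, against 21.1% of all genes, 10.7% lower and 10.4% higher. Averaged over both times, 8 of 10 were called, each lower, against 31.5% of all genes, 15.9% lower and 15.5% higher. The median log2 fold change of the members was -0.19 at ZT0, -0.22 at ZT12 and -0.20 for the mean of both times, while that of all genes was -0.01, 0.00 and 0.00. Without the shallowest library the counts remained 4, 4 and 8.

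Pecam1 (PECAM-1 or CD31, an adhesion molecule at the contacts of endothelial cells; chromosome 11, 106654213 to 106715281) stood at 212, 227, 224, 227 and 223 CPM in the 5 GRflox libraries at ZT0. In CardioGRKO at ZT0 it stood at 189, 184, 193, 202 and 205 CPM. At ZT12 the GRflox libraries held 193, 196, 207, 203 and 187 CPM and the CardioGRKO libraries 171, 166, 174, 161 and 174. No CardioGRKO library reached the lowest GRflox library of the same time. The difference, as a log2 fold change, was -0.19 ± 0.04 (SE) at ZT0 (edgeR, adjusted p = 0.00162) and -0.22 ± 0.04 at ZT12 (adjusted p = 0.00022). Of the members it also varied least among libraries of a group, with an SD of 0.05 on the log2 scale.

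Cdh5 encodes VE-cadherin, the adhesion protein of the adherens junctions of the endothelium (chromosome 8, 104101613 to 104144504, with an antisense gene, Gm29682, in the annotation). Its levels at ZT0 were 495, 480, 458, 520 and 487 CPM in GRflox and 413, 416, 439, 452 and 433 CPM in CardioGRKO. At ZT12 they were 405, 449, 442, 413 and 431 CPM in GRflox and 380, 367, 367, 340 and 383 CPM in CardioGRKO. Here too the groups did not overlap at either time. The difference was -0.18 ± 0.04 at ZT0 (edgeR, adjusted p = 0.00582) and -0.22 ± 0.04 at ZT12 (adjusted p = 0.000597).

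Esam, an adhesion molecule of endothelial tight junctions (chromosome 9, 37528089 to 37538319), was measured at 50.6, 46.1, 44.4, 47.7 and 46.4 CPM in GRflox and 39.8, 39.5, 44.0, 39.7 and 43.6 CPM in CardioGRKO at ZT0. At ZT12 the values were 49.4, 48.7, 54.0, 50.9 and 52.0 CPM against 44.3, 41.5, 39.7, 40.5 and 43.3 CPM. The gap between the groups was narrow at ZT0, where the highest CardioGRKO library lay just under the lowest of GRflox, and wide at ZT12. Esam differed by -0.19 ± 0.05 at ZT0 (edgeR, adjusted p = 0.0126) and -0.29 ± 0.05 at ZT12 (adjusted p = 0.000137). Without GRflox ZT0 replicate 1, the highest of its group, the call at ZT0 was lost (-0.16, adjusted p = 0.0501).

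Tie1, an orphan receptor kinase that works with the angiopoietin receptor Tie2 (chromosome 4, 118471191 to 118489849), held 131, 140, 137, 147 and 130 CPM in GRflox and 110, 117, 112, 122 and 118 CPM in CardioGRKO at ZT0. These groups did not overlap, and the difference was -0.24 ± 0.06 (edgeR, adjusted p = 0.00703). At ZT12 the GRflox libraries spread from 102 to 134 CPM around those of CardioGRKO at 103 to 118 CPM, and the difference of -0.11 ± 0.06 was not called (adjusted p = 0.189). The change of Tie1 between times did not differ between genotypes past the threshold (0.13 ± 0.08, adjusted p = 0.918). In the pathway around it, Tek, the gene of Tie2, was called lower in the mean of both times (-0.19 ± 0.04, adjusted p = 0.00117). Of 6 tested genes of its ligands and regulators 2 were called lower and 1 higher in that mean, against 15.9% and 15.5% of all genes. Angpt1, the activating ligand of Tie2, fell by 0.84 ± 0.09 and Foxo1, a transcription factor under its control, by 0.12 ± 0.04. Svep1, an extracellular matrix protein that binds Tie1, rose by 0.31 ± 0.07.

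Eng and Emcn were called at neither time alone and were called lower in the mean of both times. Eng encodes endoglin, a coreceptor for ligands of the TGF-beta family (chromosome 2, 32646595 to 32682669, where it overlaps Fpgs on the other strand). It ran from 230 to 272 CPM in GRflox and 191 to 246 CPM in CardioGRKO at ZT0, and from 239 to 324 and 207 to 286 CPM at ZT12, with overlap at both times. Its difference in the mean of both times was -0.21 ± 0.07 (edgeR, adjusted p = 0.0194). Emcn, the sialomucin endomucin (chromosome 3, 137341062 to 137431069), ran from 49.4 to 72.4 and 47.9 to 60.9 CPM at ZT0, and from 51.4 to 60.0 and 45.4 to 53.3 CPM at ZT12. Its difference in that mean was -0.19 ± 0.06 (adjusted p = 0.013). Among 20 tested genes of endoglin's pathway, 5 were called lower and 1 higher in the mean of both times, about the share of all genes called (31.5%). Tmem100, a membrane protein induced by the ALK1 receptor, fell by 0.98 ± 0.06. The receptors Tgfbr2 and Tgfbr1 fell by 0.25 ± 0.04 and 0.20 ± 0.05 and the shared signal transducer Smad4 by 0.24 ± 0.03.

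The 2 secreted members differed from each other. Vwf, the carrier of clotting factor VIII that also binds platelets (chromosome 6, 125552948 to 125686679), was lower in the mean of both times by 0.23 ± 0.07 on the log2 scale (edgeR, adjusted p = 0.0181). Egfl7, a matrix-bound protein of growing vessels (chromosome 2, 26581083 to 26592682), was not called in any genotype comparison. It ran from 67.0 to 87.2 CPM in GRflox and 67.2 to 82.6 CPM in CardioGRKO at ZT0, and from 69.1 to 84.1 and 64.7 to 75.9 CPM at ZT12. Its difference in the mean of both times was -0.06 with a 95% interval from -0.17 to 0.04 (adjusted p = 0.386). The Egfl7 locus overlaps the protein-coding gene Agpat2 on the other strand, and the strand setting of the counting is not known here. An intron of Egfl7 also holds miR-126, a microRNA of endothelial cells, shown here with its seed, bases 2 to 8, in capitals (chr2:26591402-26591423, plus strand, RefSeq on GRCm38.p6).
miR-126a-3p: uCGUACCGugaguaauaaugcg
These poly(A) libraries do not measure the mature microRNA. Its locus had 1 to 18 counts per library.

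Cldn5 and Ly6c1 complete the genotype comparison. Cldn5, the claudin that seals the tight junctions of endothelial cells, was not called at either time, with 0.10 ± 0.14 at ZT0 (edgeR, adjusted p = 0.701) and -0.38 ± 0.15 at ZT12 (adjusted p = 0.071). In the mean of both times its interval ran from -0.35 to 0.07. Ly6c1, a GPI-anchored surface protein of endothelial cells, was lower at ZT12 by 0.31 on the log2 scale (SE 0.07, adjusted p = 0.00241), where CardioGRKO held 137 to 163 CPM and GRflox 166 to 230. At ZT0 its difference of -0.13 ± 0.07 was not called (adjusted p = 0.225). For 4 members the groups did not overlap at each time, always with CardioGRKO lower: Pecam1, Cdh5 and Esam at both, Tie1 at ZT0 and Ly6c1 at ZT12. Of all genes, 6% had CardioGRKO lower and 5.95% higher without overlap at ZT0, and 7.22% and 6.6% at ZT12.

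**Figure D2:**
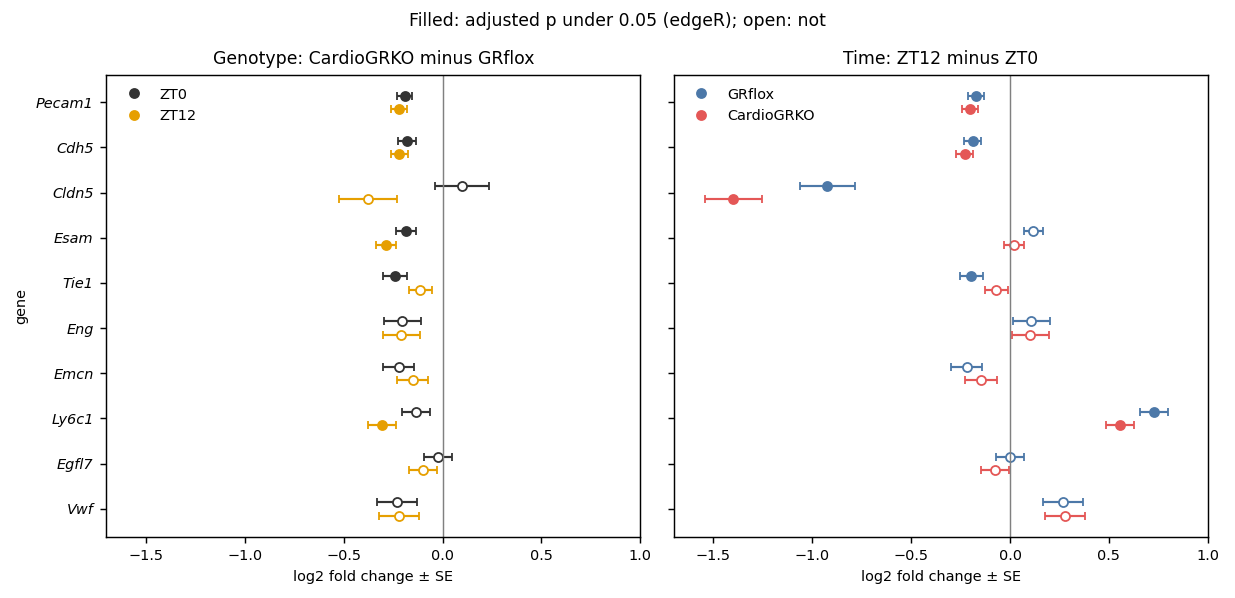
Log2 fold changes ± SE of the 10 genes between genotypes (left: black ZT0, orange ZT12) and between times (right: blue GRflox, red CardioGRKO); filled points passed an adjusted p of 0.05 in the edgeR test. The genotype differences lie close together between -0.38 and 0.10, while the time differences run from -1.40 to 0.73.

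In the mean of both times the genotype difference was much the same size across the members and in other endothelial genes. The 10 log2 fold changes ran from -0.24 (Esam) to -0.06 (Egfl7), and their SD over genes was 0.05, as large as the median SE of a single gene (0.05). The 26 other endothelial genes ran from -0.31 to -0.06 with an SD of 0.06, a median of -0.18 and a median SE of 0.05. Where 15.9% of all genes were called lower, 19 of the 26 were, and all 26 lay below zero. The calls with the smallest p among them were Robo4, a guidance receptor that stabilises vessels (-0.27 ± 0.04), Ramp2, a subunit of the adrenomedullin receptor (-0.28 ± 0.05), Arhgef15 (-0.21 ± 0.04), and Mmrn2, a matrix protein (-0.16 ± 0.03). Summed CPM of the members ran from 1449 to 1564 in GRflox and 1270 to 1376 in CardioGRKO at ZT0, and from 1396 to 1622 against 1211 to 1332 at ZT12, without overlap at either time. At each time alone the members' log2 fold changes spread more. Their SD was 0.108 against a median SE of 0.071 at ZT0, where they ran from -0.24 to 0.098 (Cldn5, not called). At ZT12 it was 0.087 against 0.07. These comparisons of size describe the lists and do not test them.

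Lists that mark particular vessels or functions gave mixed counts with genotype. They are to be read against the 31.5% of all genes called in the mean of both times, 15.9% lower and 15.5% higher. In the mean of both times, 4 of 5 tested venous genes were called lower. Of these Lrg1, a secreted glycoprotein of venules that inflammation raises, fell by 1.28 ± 0.09 and Selp, the adhesion receptor P-selectin, by 0.72 ± 0.25, while Nr2f2, the transcription factor of vein identity, and Ephb4, a receptor of ephrins, fell by 0.22 ± 0.06 and 0.16 ± 0.04. Of 10 arterial genes 4 were called lower, among them the gap junction gene Gja5 (-0.31 ± 0.08) and Mecom, a transcription factor (-0.30 ± 0.08). Of 9 heart capillary genes 3 were called lower, led by Cd300lg, a surface mucin (-0.22 ± 0.03). The median log2 fold change was -0.220 for the venous, -0.098 for the arterial and -0.146 for the capillary list. Other lists lay nearer zero or were split. Of 5 endocardial genes 1 was called lower (median -0.001), and of 5 tested tip cell genes 2 were called lower (median -0.022). Of 6 tested lymphatic genes 2 were called lower and 1 higher (median -0.094). Of 19 tested endothelial transcription factors 10 were called lower and 1 higher: Epas1, the hypoxia factor HIF-2 alpha, fell by 0.23 ± 0.04, and Gata2 by 0.31 ± 0.06, while Lmo2, an adaptor of transcription factors, rose by 0.57 ± 0.06. Some of these genes stand in more than 1 list, such as Selp and Nr2f2. Of 13 tested junction partners 5 were called, each higher, with Cdh2, the cadherin of cardiomyocytes, at 0.18 ± 0.02 and Jam2 at 0.21 ± 0.04. Of 11 tested genes of Vwf storage and release 4 were called higher, such as Rab3d (0.25 ± 0.04), and Selp lower. Many of those partners are also made outside the endothelium.

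Markers of other cells moved beside this in different ways. Of all genes 15.9% were called lower and 15.5% higher in the mean of both times. In the mean of both times the median log2 fold change was -0.175 for cardiomyocyte markers and -0.231 for pericyte and smooth muscle markers. For fibroblast and macrophage markers it was 0.056 and 0.025. A fall of the members' size (median -0.203) was thus not limited to endothelial genes. Of 11 cardiomyocyte markers 8 were called lower and 1 higher in the mean of both times, with summed CPM of 118600 to 123700 in GRflox and 103500 to 110800 in CardioGRKO at ZT0. At ZT12 these sums ran from 124900 to 129100 and from 102400 to 117100. Of 12 pericyte and smooth muscle markers 9 were called lower and 1, Acta2 (smooth muscle actin), higher, by 1.04 ± 0.10. Their summed CPM overlapped between genotypes at both times, with 1594 to 1873 in GRflox and 1460 to 1966 in CardioGRKO over both. These sums rest largely on a few highly counted genes such as Acta2, with up to 20226 counts in a library. They therefore say little of the other markers. None of 8 fibroblast markers was called in that mean (edgeR; 0 at an unadjusted p under 0.05) and 1 of 10 macrophage markers was called higher. Fibroblast markers summed to 1087 to 1364 CPM in GRflox and 1203 to 1377 in CardioGRKO, and macrophage markers to 226 to 323 and 232 to 326 CPM. The part of these other cell types in the members' difference was not tested.

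When each library was rescaled so that the mean log2 level of the 26 other endothelial genes was equal in all libraries, the genotype differences of the members centred near zero. The median of the 10 was then -0.01 at ZT0, -0.03 at ZT12 and -0.02 for the mean of both times. At ZT0 and ZT12 none was called (edgeR, 2 and 0 at an unadjusted p under 0.05), where 36.8% and 47.4% of all genes were called. In the mean of both times Egfl7 was called higher (0.12 ± 0.05, edgeR, adjusted p = 0.0205). DESeq2 was run under its own scaling and not under this one, and there called 5 members at ZT0 and 5 at ZT12. The same rescaling moved the median of all genes in the mean of both times from 0.00 to 0.18, and 59.6% of all genes were then called. Relative to the median of all genes, the members' median was -0.20 under TMM, under library totals alone and under the endothelial scaling. This value could hardly differ between scalings, since each moves all genes of a library by the same factor. The rescaling sets the endothelial mean equal by construction. It therefore does not show whether cell share, RNA per cell or the RNA of other cells differed.

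**Figure D3:**
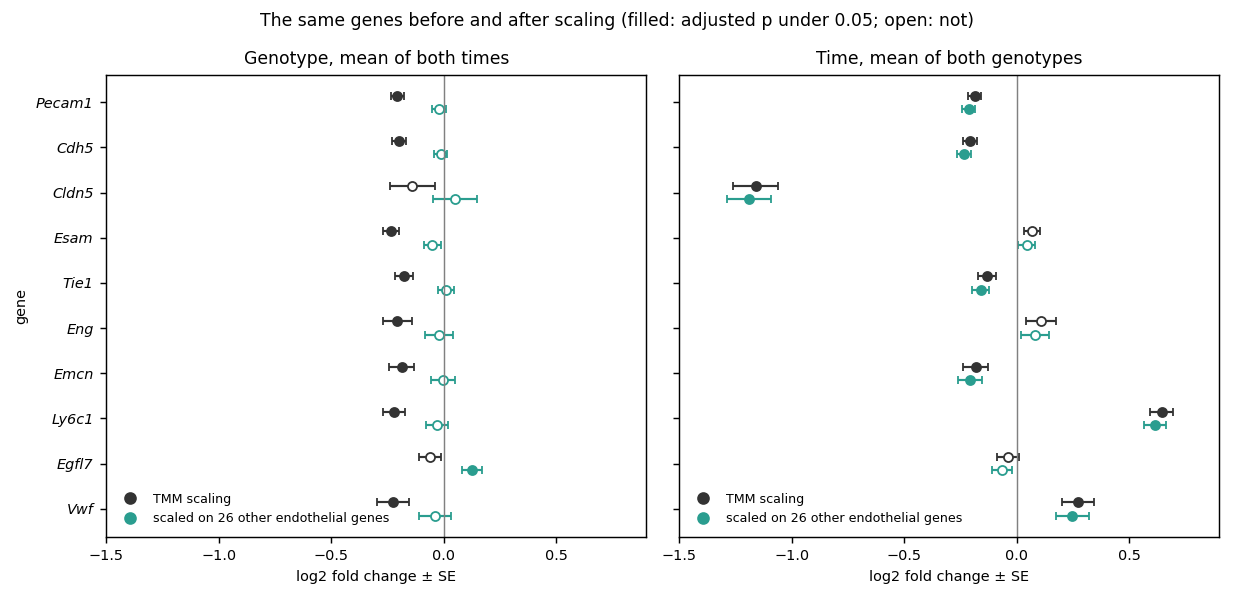
Log2 fold changes ± SE of the 10 genes under TMM scaling (black) and after scaling every library to equal mean log2 level of 26 other endothelial genes (green), for genotype in the mean of both times (left) and time in the mean of both genotypes (right); filled points passed an adjusted p of 0.05. The genotype differences move from a median of -0.20 to -0.02, while Cldn5 stays at -1.19 and Ly6c1 at 0.62 in the time comparison.

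The comparison of times asks which endothelial genes differed between lights on and lights off. From ZT0 to ZT12, Cldn5 fell and Ly6c1 rose in both genotypes, and Pecam1 and Cdh5 fell by 11.3% to 14.7%. In GRflox 5 of the 10 members were called, 4 lower and 1 higher, against 17.3% of all genes, 9.17% lower and 8.13% higher. In CardioGRKO 4 were called, 3 lower and 1 higher, against 9.17% of all genes, 4.75% lower and 4.42% higher. In the mean of both genotypes 7 were called, 5 lower (Pecam1, Cdh5, Cldn5, Tie1 and Emcn) and 2 higher (Ly6c1 and Vwf), against 25.7% of all genes, of which 12.9% lower and 12.8% higher. Groups did not overlap for Pecam1, Cdh5 and Cldn5 (lower at ZT12) and Ly6c1 (higher), in each genotype. Among all genes 6.57% were lower and 5.93% higher without overlap in GRflox, and 3.61% and 3.51% in CardioGRKO.

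Cldn5 (chromosome 16, 18776847 to 18778262, a single exon) changed most. Its levels at ZT0 were 37.9, 23.7, 22.8, 32.5 and 23.3 CPM in GRflox and 39.0, 32.0, 25.0, 31.5 and 22.9 CPM in CardioGRKO. At ZT12 they were 14.8, 12.8, 16.5, 13.0 and 16.0 CPM in GRflox and 12.8, 11.01, 12.0, 9.85 and 10.7 CPM in CardioGRKO. Every ZT12 library lay below every ZT0 library, and the ZT0 libraries of both genotypes were widely scattered. The level at ZT12 was 1.90-fold lower in GRflox (log2 fold change -0.92 ± 0.14, edgeR, adjusted p = 4.63e-05) and 2.64-fold lower in CardioGRKO (-1.40 ± 0.14, adjusted p = 3.59e-07). Cldn5 was also the most variable member among libraries of a group, with an SD of 0.25 on the log2 scale, where the median over 6790 genes at least as abundant as the lowest member was 0.09.

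Ly6c1 (chromosome 15, 75044018 to 75048920) moved the other way. It held 112, 111, 119, 108 and 115 CPM in GRflox and 104, 105, 111, 96.2 and 99.8 CPM in CardioGRKO at ZT0. At ZT12 it held 166, 182, 230, 188 and 170 CPM in GRflox and 162, 137, 142, 156 and 163 CPM in CardioGRKO. The ZT12 libraries all lay above those of ZT0, with 1 GRflox library above the rest. The rise was 1.66-fold in GRflox (0.73 ± 0.07, edgeR, adjusted p = 6.35e-08) and 1.47-fold in CardioGRKO (0.56 ± 0.07, adjusted p = 9.27e-06). Its close relative Ly6c2, a gene of monocytes, had 1 to 18 counts per library, or 0.0503 to 0.973 CPM, and did not pass the filter. Reads that match both copies could have been assigned to either or lost. The 4 monocyte genes, Ly6c2 among them, summed to 1.47 to 3.63 CPM per library, and Chil3 and Plac8 had no count in 10 and 6 libraries. Of 3 tested relatives of the Ly6 family, Ly6a (0.38 ± 0.07) and Gpihbp1, which carries lipoprotein lipase across capillary cells (0.33 ± 0.05), rose in the mean of both genotypes, and Ly6e was not called.

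The other junction genes had smaller differences with time. Pecam1 fell by 0.17 ± 0.04 in GRflox (edgeR, adjusted p = 0.00317) and by 0.20 ± 0.04 in CardioGRKO (adjusted p = 0.00151). Cdh5 fell by 0.19 ± 0.04 (adjusted p = 0.00325) and by 0.23 ± 0.04 (adjusted p = 0.00105). Esam, in contrast, was not called in either genotype, with 0.12 ± 0.05 in GRflox (adjusted p = 0.103) and 0.02 ± 0.05 in CardioGRKO (adjusted p = 0.89). So, of 4 genes of endothelial cell contacts, Cldn5 was 2.24-fold lower in the mean of both genotypes, Pecam1 and Cdh5 1.14-fold and 1.16-fold lower, and Esam had an interval of the log2 fold change from 0.00 to 0.14. Of 13 tested partners of these junctions, 3 were called lower in that mean, among them Mllt4 (afadin, -0.38 ± 0.06) and Ctnnd1 (p120-catenin, -0.13 ± 0.03). Marveld2, the tricellular junction protein tricellulin, was called higher (0.63 ± 0.18). Of all genes 12.9% were called lower and 12.8% higher in that mean. These partners are also made by cells other than endothelium.

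Among the receptors and surface proteins, Tie1 fell in GRflox by 0.20 ± 0.06 (edgeR, adjusted p = 0.0217) and had a difference of -0.07 ± 0.06 in CardioGRKO that was not called (adjusted p = 0.538). The call in GRflox was lost without any 1 of 4 libraries, namely GRflox ZT0 replicate 2 or 4 or GRflox ZT12 replicate 1 or 4 (adjusted p = 0.051, 0.0642, 0.0562 and 0.0681). Emcn was called in the mean of both genotypes alone (-0.18 ± 0.06, adjusted p = 0.0179), and Eng in no time comparison (0.11 ± 0.07 in that mean, adjusted p = 0.261). Around Tie1, Angpt2, the vessel-destabilising ligand of Tie2, fell by 0.63 ± 0.11 in the mean of both genotypes and Tek by 0.23 ± 0.04, while Svep1 rose by 0.41 ± 0.07; of the 6 tested ligands and regulators 2 were called lower and 1 higher. Around endoglin, 7 of 20 genes were called higher and 2 lower. Of all genes 25.7% were called in that mean, 12.8% higher and 12.9% lower. The ligand Bmp4 rose by 0.70 ± 0.08, the inhibitors Smad7 and Smad6 by 0.40 ± 0.07 and 0.39 ± 0.08, and the target Id1 by 0.29 ± 0.07.

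Vwf rose in the mean of both genotypes. At ZT0 it held 54.3, 60.5, 65.6, 65.4 and 56.2 CPM in GRflox and 43.6, 63.1, 53.8, 49.1 and 44.1 CPM in CardioGRKO. At ZT12 it held 62.7, 76.5, 78.5, 83.9 and 61.2 CPM in GRflox and 64.8, 50.4, 67.2, 66.9 and 62.0 CPM in CardioGRKO. The times overlapped in both genotypes. The rise was 1.21-fold in the mean (0.27 ± 0.07, edgeR, adjusted p = 0.00627), and neither genotype alone was called (adjusted p = 0.0688 in GRflox and 0.0928 in CardioGRKO). Of 11 tested genes of Vwf storage and release, 4 were called in that mean, each higher, against 25.7% of all genes, 12.8% higher. Rab27a, a small GTPase of storage granules, rose by 0.89 ± 0.11, Rab3d, another, by 0.30 ± 0.04, Myrip, a partner of Rab27a, by 0.50 ± 0.11 and Vamp3, a fusion protein, by 0.16 ± 0.05. Platelets also hold Vwf: the 6 platelet genes summed to 10.3 to 19.2 CPM per library, and of the 4 tested only Ppbp, a platelet chemokine, was called, lower at ZT12 (-1.33 ± 0.37). Ppbp had only 1 to 72 counts per library. Egfl7 was not called in any time comparison, with 0.00 ± 0.07 in GRflox and -0.08 ± 0.07 in CardioGRKO.

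With time the members thus spread far more than their errors. The SD of the 10 log2 fold changes in the mean of both genotypes was 0.46, against a median SE of 0.05, and they ran from -1.16 to 0.64. The 26 other endothelial genes had an SD of 0.28 and a median SE of 0.05, with 8 called higher and 6 lower, against 12.8% and 12.9% of all genes. Gpr116, a G protein-coupled receptor of vessels (0.44 ± 0.04), Ramp2 (0.54 ± 0.05) and Flt1, a VEGF receptor (0.36 ± 0.04), rose, and Kdr, the main signalling receptor for VEGF, fell by 0.73 ± 0.07. Of 5 tested tip cell genes, which mark sprouting vessels, 4 were called lower and 1 higher: Cxcr4, a chemokine receptor (-0.59 ± 0.09), Angpt2, Apln, the peptide apelin (-0.54 ± 0.10), and Esm1 fell, and Pgf, a VEGF relative, rose (0.71 ± 0.10). Of 9 heart capillary genes 4 were called higher and 2 lower, the latter being Aplnr, the apelin receptor (-0.93 ± 0.12), and Aqp7, a glycerol channel (-0.64 ± 0.08). The mean of the 26 other genes differed little between times, so scaling on it could change the time calls little. It moved the members' median from -0.086 to -0.113 in the mean of both genotypes. After that scaling 7 members were called in this mean, 5 lower and 2 higher, against 23.4% of all genes. In GRflox 6 were called against 15.8%, and in CardioGRKO 4 against 7.7%. Cldn5 was then at -1.19 ± 0.10 and Ly6c1 at 0.62 ± 0.05. Summed CPM of the members overlapped between times in both genotypes. Of the markers of other cells, 3 of 11 of cardiomyocytes were called higher with time, 2 of 12 of pericytes and smooth muscle higher and 1 lower, 1 of 8 of fibroblasts higher and 1 lower, and 2 of 10 of macrophages higher and 3 lower. Their part in the members' time differences was not tested.

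**Figure D4:**
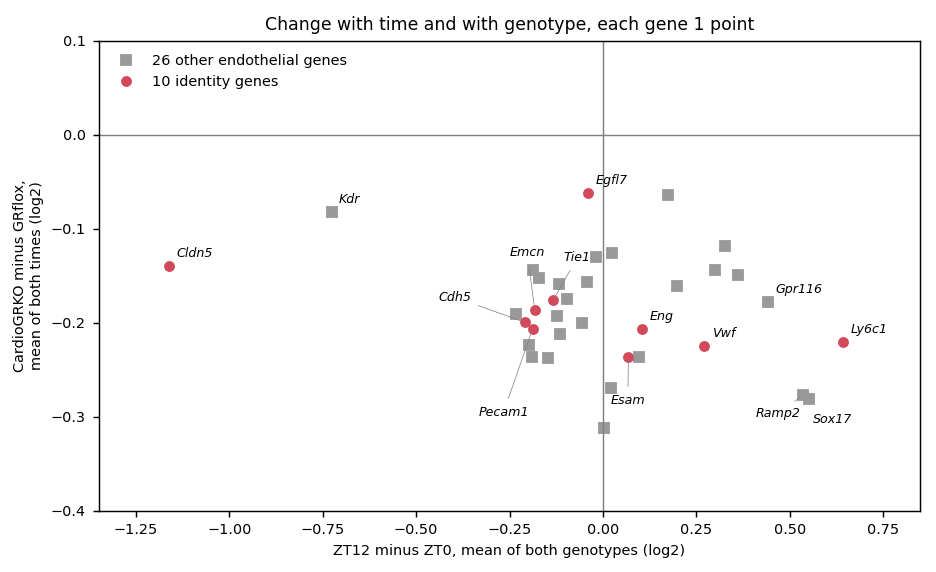
Log2 fold change with time (horizontal, mean of both genotypes) against that with genotype (vertical, mean of both times) for the 10 members (red circles) and 26 other endothelial genes (grey squares), each point 1 gene; both comparisons use the same 20 libraries. All 36 points lie below zero for genotype, between -0.31 and -0.06, while along the time axis they run from -1.16 for Cldn5 to 0.64 for Ly6c1.

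No member showed a time difference that depended on genotype past the threshold. The interaction was called for 0 of 10 members by the edgeR test and by DESeq2, and for 0.186% of all genes, 0.121% lower and 0.0643% higher. At an unadjusted p under 0.05 there was 1, Cldn5, with an interaction of -0.48 ± 0.20 (edgeR, unadjusted p = 0.0262, adjusted p = 0.719), which ranked 509 of 14007 genes. The interval of that interaction, from -0.89 to -0.06, covers both a small and a large difference in the drop of Cldn5 between genotypes. For Ly6c1 the interaction was -0.17 ± 0.10 (adjusted p = 0.893), and for the other 8 members it lay between -0.10 and 0.13.

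Within groups the members followed one another only loosely. Over the 20 libraries, after subtraction of each group's mean, the 45 pairs of members had a median Pearson r of 0.17, from -0.48 (Cldn5 with Emcn) to 0.68 (Eng with Vwf), and 30 pairs were above zero. The members' mean deviation went with that of the 26 other endothelial genes (r = 0.70, Spearman's rank correlation 0.67, r = 0.61 without the 2 farthest libraries) and against that of the cardiomyocyte markers (r = -0.69, rank correlation -0.72, r = -0.71 without 2). For fibroblast, pericyte and smooth muscle, and macrophage markers r was -0.06, -0.02 and 0.18, and without the 2 farthest libraries 0.03, -0.02 and 0.35. The points share their libraries and TMM factors, and no test is attached to these values. Of 11342 genes ranked by r with the members' mean, the most alike were Ephb4 (0.88), a receptor of venous endothelium, Efnb1 (0.80), an ephrin ligand, Slc9a3r2 (0.78), Chst12 (0.77), Git1 (0.76), Dyrk1b (0.75), Tmub2 (0.75) and Myct1 (0.74), the last from the list of 26.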

How the data were processed

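RNA-seq counts of 20 left ventricular libraries were used, 5 for each of 4 groups, with genotype and time taken from the labels. The files as deposited by the authors hold raw counts per gene. STAR 2.5.1, featureCounts of Subread 1.5.1, DESeq2 1.38.3 and the build mm10 are named per the submitters' processing notes. The strand setting, the treatment of reads matching several genes and the annotation release are not known here. Lines of 1 gene were summed by Entrez identifier, from 24918 lines to 24059 genes. No replicate pair agreed within sampling noise (chi-square 4.22 to 20.96 per gene).

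The edgeR 4.0.16 quasi-likelihood test (R 4.3.3) was run on the counts with TMM factors, filterByExpr (minimum count 10, minimum total 15) and 4 group means over all libraries, with Benjamini-Hochberg adjustment over 14007 genes and a threshold of 0.05. The SE is the size of the log2 fold change over the square root of F, with a prior count of 2 for log2 CPM. The code was tested on simulated data. Figures were drawn with matplotlib 3.10.9.

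The members, the gene lists and the tests were chosen with earlier results of these data known. Named are Nr3c1, the members, for every other list at most 4 genes, those of smallest p in the contrast discussed, the 8 genes most alike within groups, and Ly6c2. Outside that rule, chosen after their values were seen, are Tek and Esm1. A junction partner within the rule is left out of the text. Alternatives were DESeq2 1.42.0, other scalings (size factors of DESeq2, library totals, 26 endothelial genes), no filter, a replicate block, only the groups compared, each library left out in turn, and, chosen after seeing the data, another transcript length.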

Additional observations from a re-analysis of the deposited data

Results flagged for a closer look

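Egfl7 was at 64.7 CPM in replicate 4 of CardioGRKO at ZT12, below the other 4 libraries of that group, which lay between 72.9 and 75.9 CPM. Its gap to the nearest library was 0.729 of the group's range, just above the critical value of 0.71 for 5 libraries. It was the only one of 40 groups (10 genes in 4 groups) that was flagged. Chance alone flags about 1 in 20, so 1 flag in 40 is no more than chance gives.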

How the results depend on the processing

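Scaling on the 26 other endothelial genes ended the genotype calls: 0 members were called at ZT0, 0 at ZT12 and 1 (Egfl7) in the mean of both times. Under that scaling Cdh5 at ZT0 was at 0.00 (adjusted p = 0.997), Tie1 in the mean of both times at 0.01 (0.835) and Egfl7 in that mean at 0.12 (0.0205). Library totals without TMM left 5 members called in the mean of both times, where the median of all genes was 0.07 in place of 0.00. Other counts stayed within 1.5 times of those reported. Leaving out 1 library at a time gave 4 to 5 calls for genotype at ZT0, 4 to 5 at ZT12 and 8 to 8 in the mean. For time it gave 4 to 7 in GRflox, 4 to 5 in CardioGRKO and 7 to 7 in the mean, and 0 to 0 for the interaction. With the replicate number as a block the counts were 5, 6, 8, 6, 5, 7 and 0 in that order. Whether the numbers pair the libraries is not stated in the labels and was not tested. Same-numbered libraries had a median r of 0.029 over 30 pairs (-0.272 to 0.234), and libraries of different number -0.005 over 120 pairs (-0.3 to 0.316). Of 20 libraries 7 correlated best with their own number. Counts limit Cldn5 most, with 176 in CardioGRKO ZT12 replicate 5 as its lowest and 237 in the shallowest library.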
